A study of Mus musculus with 20 samples.

Results

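The 9 genes described here belong to the circadian clock and were followed across mouse macrophages given dimethyl itaconate before an inflammatory stimulus: the DEC repressors Bhlhe41 and Bhlhe40, the activator Clock, the repressors Per1, Per2 and Cry1, the REV-ERB receptors Nr1d1 and Nr1d2, and the output gene Dbp. The members were the rows of the deposited count table that carry the Ensembl identifiers of these 9 symbols, 9 of 22165 genes in the table. They were chosen because Bhlhe41 was nearly lost in the control cells and not in the dimethyl itaconate cells, so the levels of Bhlhe41 are given here as a description, with no test. All 9 passed the filter on low counts, which kept 10663 genes, and the 8 others were tested with those genes. Per2, at 0 reads in every DI library, passed it through the Ctrl libraries alone.

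The cells were bone marrow-derived macrophages, which are macrophages grown in culture from marrow, of wild-type C57BL/6 mice, grown with m-CSF. The dimethyl itaconate groups (DI) received 250 uM of this cell-permeable ester of the metabolite itaconate for 12 h, and the control groups (Ctrl) did not. Both were then stimulated with the bacterial product LPS together with the cytokine IFNg and sampled at 0, 1, 2, 4 and 6 h, with 2 libraries in each of the 10 groups. The 0 h groups received no stimulus, and no unstimulated group was sampled later, so hours in culture and the stimulus cannot be told apart in any comparison with 0 h. Bulk libraries also cannot tell fewer cells that use a gene from less RNA per cell. The labels do not say whether the replicates came from separate mice or cultures, so p-values measure the spread between these libraries, which may be technical.

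The clock is a loop of transcription factors that turn one another on and off over the day. CLOCK and its partner BMAL1, the product of Arntl, bind E-box sequences and activate the Per, Cry, Nr1d, Bhlhe40 and Bhlhe41 genes and outputs such as Dbp. PER and CRY proteins then inhibit the activator pair, the DEC proteins BHLHE40 and BHLHE41 bind E-boxes as repressors, and the REV-ERB receptors repress Arntl and other genes through ROR elements. Mouse macrophages run this clock, REV-ERB receptors repress inflammatory genes in them, and Bhlhe40 and Bhlhe41 are known for their part in the self-renewal of alveolar macrophages in mice.

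Promoters are shown for Bhlhe41, the gene the list was chosen on, for Dbp, the member with most calls below, and for Nr1d1 and Per1, whose windows hold other motifs. Each is 300 bases from RefSeq (GRCm38.p6), 250 before the start site to 50 after it, read 5′ to 3′ on the gene's strand, with motif matches in capitals. The Bhlhe41 window lies at chr6:145865371-145865670 on the minus strand, that of Nr1d1 at chr11:98775328-98775627 on the minus strand, that of the first Per1 start site at chr11:69098699-69098998 on the plus strand and that of Dbp at chr7:45704997-45705296 on the plus strand.
Bhlhe41: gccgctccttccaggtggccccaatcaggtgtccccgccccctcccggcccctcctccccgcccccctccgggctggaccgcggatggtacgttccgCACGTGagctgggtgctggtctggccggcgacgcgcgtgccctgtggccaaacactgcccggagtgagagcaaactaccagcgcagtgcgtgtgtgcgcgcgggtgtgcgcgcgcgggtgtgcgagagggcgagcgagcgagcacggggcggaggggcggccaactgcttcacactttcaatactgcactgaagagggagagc
Nr1d1: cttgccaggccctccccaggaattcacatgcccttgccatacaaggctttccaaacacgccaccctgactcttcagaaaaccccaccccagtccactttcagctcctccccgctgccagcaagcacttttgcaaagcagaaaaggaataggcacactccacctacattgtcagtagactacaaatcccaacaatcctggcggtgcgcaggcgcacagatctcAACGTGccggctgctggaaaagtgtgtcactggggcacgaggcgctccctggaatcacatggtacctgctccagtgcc
Per1: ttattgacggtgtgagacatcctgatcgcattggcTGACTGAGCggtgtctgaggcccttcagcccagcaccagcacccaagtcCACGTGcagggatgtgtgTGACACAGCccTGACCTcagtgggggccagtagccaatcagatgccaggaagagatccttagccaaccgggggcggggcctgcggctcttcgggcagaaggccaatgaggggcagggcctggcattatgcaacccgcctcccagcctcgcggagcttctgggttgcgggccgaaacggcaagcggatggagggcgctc
Dbp: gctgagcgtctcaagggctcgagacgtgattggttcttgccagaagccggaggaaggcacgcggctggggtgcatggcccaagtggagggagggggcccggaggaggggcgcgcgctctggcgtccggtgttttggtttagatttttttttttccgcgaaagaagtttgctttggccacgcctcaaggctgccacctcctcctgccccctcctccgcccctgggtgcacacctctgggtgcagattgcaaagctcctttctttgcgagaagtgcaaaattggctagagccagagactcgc
The motifs searched on both strands were the E-box CACGTG, the E-prime box CACGTT, the ROR element core AGGTCA, the cyclic AMP core TGACGT and the antioxidant core TGACNNNGC. An E-box begins 153 bases before the Bhlhe41 start site and 166 bases before that of Per1. The Nr1d1 window holds an E-prime box, written AACGTG on this strand, 28 bases before the start. The Per1 window also holds a ROR core, written TGACCT on this strand, and 2 antioxidant cores, and the Dbp window holds none of the 5. Of the 7 members with an entry, 3 hold an E-box (Bhlhe41, Per1 and Cry1), in 3 of their 10 promoter windows, since Per1 and Clock have several start sites, against 7.15% of 32851 promoters of this length. An E-prime box is in 2 of the 10 windows (Nr1d1 and Cry1; 4.68% of all), a ROR core in 3 (Nr1d2, Per1 and Clock; 16.3%), an antioxidant core in 3 (Nr1d2, Per1 and Cry1; 12.4%) and a cyclic AMP core in 1, at the second Per1 start site (7.51%). A match describes these letters and is not evidence of binding.

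The libraries held 3982073 to 6725447 counted reads in DI and 3655977 to 8938983 in Ctrl. Macrophage markers were present in every library: 8 of 8 were detected in both treatments, with a summed level of 2620 to 4382 CPM (read counts scaled to a common library size) in DI and 3246 to 4757 CPM in Ctrl. Neutrophil markers summed to 273 to 527 CPM in DI and 244 to 625 CPM in Ctrl, and fibroblast or stroma markers to 5.76 to 40.5 CPM in DI and 38.7 to 69.5 CPM in Ctrl, and the part of such cells in the results was not tested. The DI libraries were less complex. Genes seen by just 1 to 3 reads numbered 333 to 674 per DI library and 1370 to 1741 per Ctrl library. Each original molecule gave an estimated 3.58 to 10.2 reads in DI libraries, against 1.82 to 3.31 reads in Ctrl libraries. One estimated molecule therefore weighs 0.633 to 2.72 CPM in a DI library and 0.161 to 1.18 CPM in a Ctrl library, which limits every low level below.

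Bhlhe41, the DEC2 repressor gene (chr6:145858243-145865558 in GRCm38, minus strand), was present in both treatments before the stimulus and was nearly absent from Ctrl alone at 6 h. The 2 DI libraries held 191 and 206 reads at 0 h, 124 and 191 at 1 h, 65 and 58 at 2 h, 97 and 79 at 4 h, and 74 and 92 at 6 h. The 2 Ctrl libraries held 295 and 487 reads at 0 h, 81 and 123 at 1 h, 40 and 61 at 2 h, 6 and 17 at 4 h, and 0 and 1 at 6 h. At 1, 2, 4 and 6 h both DI libraries stood above both Ctrl libraries, and at 0 h the treatments overlapped. Scaled by TMM, which is edgeR's library scaling, the DI means were 28.7 ± 7.08, 25.8 ± 1.22, 14.9 ± 0.149, 22.3 ± 1.93 and 20.6 ± 7.67 CPM at 0, 1, 2, 4 and 6 h (SD, n = 2). The Ctrl means were 36.3 ± 18.0, 14.4 ± 2.09, 8.95 ± 1.27, 2.76 ± 1.54 and 0.149 ± 0.211 CPM (SD, n = 2).

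The DI level stood at 89.7, 51.7, 77.6 and 71.8% of its own 0 h mean at 1, 2, 4 and 6 h, so its lowest point was at 2 h. The Ctrl level was lower at each later time, with 39.6, 24.6 and 7.59% of its 0 h mean at 1, 2 and 4 h. The ratio of DI to Ctrl means was 0.791, 1.79, 1.66 and 8.09 at 0, 1, 2 and 4 h. At 6 h, 166 reads in DI stood against 1 read in Ctrl. In estimated molecules these are 22 and 1, a scaled ratio of 34.2. The 1 Ctrl read is 0.304 estimated molecules and was raised to 1. The Ctrl 6 h libraries would have held an estimated 38.4 molecules at the DI level. Within Ctrl, 1 read at 6 h stood against 782 at 0 h. With 1 and 378 estimated molecules, the scaled ratio of 0 h to 6 h was 64.4. Within DI 166 reads at 6 h stood against 397 at 0 h. The ratios of 34.2 and 64.4 both rest on that 1 Ctrl read and are a description, since Bhlhe41 was chosen for this pattern. They carry no measure of counting error, of the spread between libraries or of the error of the molecule estimate.

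In order of level, Bhlhe41 was highest in Ctrl at 0 h, then in DI at 0, 1, 4, 6 and 2 h, then in Ctrl at 1, 2, 4 and 6 h. Ctrl at 0 h did not differ from DI at 0 h beyond the spread of its libraries, which were 23.6 and 49.1 CPM. DI at 0 and 1 h, DI at 4 and 6 h, and DI at 2 h and Ctrl at 1 h also overlapped, while each of the 4 stimulated Ctrl groups stood clear of the next. Scaled by the library total alone, the means were 38.5, 29.0, 14.4, 19.4 and 18.6 CPM in DI and 50.2, 16.2, 8.35, 2.07 and 0.121 CPM in Ctrl, and Ctrl at 1 h then stood above DI at 2 h. The Bhlhe41 exons share 1280 bases with Gm43909 on the opposite strand. The libraries are strand-specific, but whether strand was used in counting is not given in the sources used here, so reads of such overlapping pairs may not be told apart. The exons of Bhlhe40 share 118 bases with the antisense gene 0610040F04Rik.

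**Figure D1:**
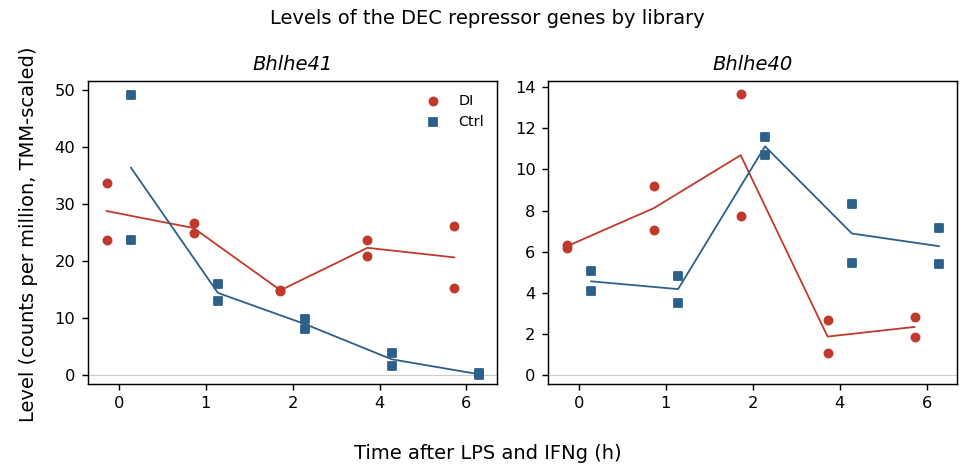
Levels of Bhlhe41 and Bhlhe40 in CPM (y axis, from 0, a different range in each panel) against hours after LPS and IFNg (x axis, times evenly spaced). Each point is 1 library, DI as circles and Ctrl as squares, and lines join the means of 2 libraries. Bhlhe41 reaches 0.149 CPM in Ctrl at 6 h with DI at 20.6 CPM, and Bhlhe40 is at 2.34 CPM in DI and 6.27 CPM in Ctrl at 6 h.

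Bhlhe40, which encodes DEC1 and is the nearest relative of Bhlhe41 (chr6:108660629-108666925, plus strand), ran the other way at the late times, on few molecules. Its DI libraries stood at 6.19 and 6.34 CPM at 0 h, 7.03 and 9.21 at 1 h, 7.72 and 13.7 at 2 h, 2.68 and 1.06 at 4 h, and 1.85 and 2.83 at 6 h. Its Ctrl libraries stood at 4.08 and 5.04 CPM at 0 h, 3.53 and 4.83 at 1 h, 11.6 and 10.7 at 2 h, 8.34 and 5.43 at 4 h, and 7.16 and 5.38 at 6 h. Both DI libraries were above both Ctrl libraries at 0 and 1 h and below them at 4 and 6 h. The fitted log2 fold change of DI over Ctrl was −1.85 ± 0.66 (SE) at 4 h, with an adjusted p of 0.0790, and −1.43 ± 0.65 at 6 h, with an adjusted p of 0.164, so neither passed 0.05 in edgeR's quasi-likelihood test. The DESeq2 Wald test called the difference at 4 h. The change since 0 h differed between DI and Ctrl by −2.31 ± 0.88 at 4 h and −1.88 ± 0.87 at 6 h on the log2 scale, with adjusted p of 0.310 and 0.411 in edgeR, which were also not called. These DI levels rest on 15 reads at 4 h and 19 reads at 6 h over both libraries. In estimated molecules the libraries held 1.69 and 0.391 at 4 h and 1.53 and 1.05 at 6 h. The DI means of 1.87 and 2.34 CPM lie under the level of 3 estimated molecules over the group, which is 3.01 and 2.50 CPM.

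Over the 8 tested members, 1 of 40 member and time pairs was called between DI and Ctrl, at an adjusted p under 0.05 in edgeR's quasi-likelihood test with Benjamini-Hochberg adjustment over all genes. The background was 7.67% of gene and time pairs over all genes tested, so the members' share was not above it. An unadjusted p under 0.05 was reached by 6 of the 40. The share of all genes at that unadjusted threshold was not computed, so no excess can be read from this count. The called pair was Dbp at 4 h, lower in DI. The median log2 fold change of the 8 members was −0.31, 0.066, −0.63, −1.12 and −0.52 at 0, 1, 2, 4 and 6 h, against −0.048, 0.0034, −0.030, −0.065 and −0.027 for all genes tested. With pairs at 0 reads set to the bound that 3 estimated molecules over the group allow, or to 0 where they allow none, the medians at 2, 4 and 6 h were 0, 0 and −0.22. With only the groups compared in the fit no pair was called (background 5.32%), and the DESeq2 Wald test called 3 (background 10.9%).

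For the difference between the responses of DI and Ctrl since 0 h, none of 28 pairs was called in edgeR, in limma-voom with quality weights or in DESeq2, against backgrounds of 0.729, 0.476 and 1.61% of pairs. In edgeR 5 had an unadjusted p under 0.05: Bhlhe40 at 4 and 6 h, Nr1d2 at 2 h, and Dbp at 4 and 6 h. The backgrounds given are for adjusted p and do not apply to these 5, for which no share over all genes was computed. Per2 could not be fitted here, since every DI library was at 0. None of these 5 passed the adjusted threshold, which does not show that the courses were alike.

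**Figure D2:**
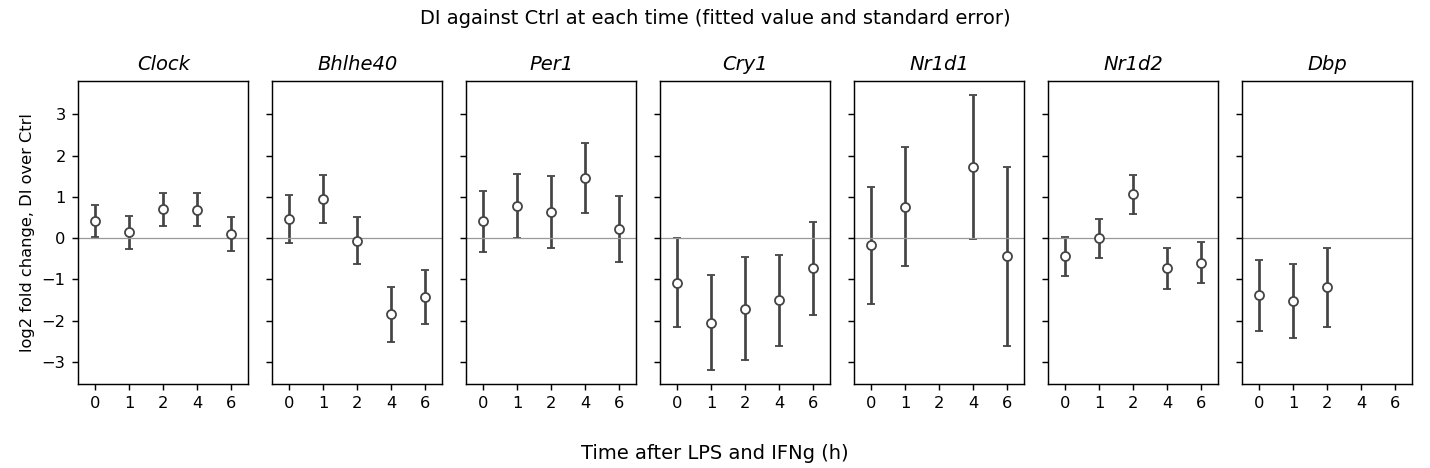
Fitted log2 fold change of DI over Ctrl (y axis, above 0 is higher in DI) at each time in hours (x axis, times evenly spaced) for 7 tested members, with standard errors as bars and 2 libraries a group. Pairs with a group at 0 reads are left out, which removes Per2, Dbp at 4 and 6 h and Nr1d1 at 2 h, and every pair drawn missed the adjusted p of 0.05. Bhlhe40 is at 0.95 at 1 h and at −1.85 at 4 h.

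Clock, the DNA-binding activator (chr5:76209868-76304792, minus strand), was called in no comparison. Its means were 39.1 ± 12.8, 27.7 ± 7.60, 32.8 ± 7.24, 30.5 ± 2.34 and 20.6 ± 12.4 CPM in DI and 29.5 ± 9.0, 25.1 ± 5.03, 20.2 ± 1.71, 19.0 ± 0.0897 and 19.3 ± 0.539 CPM in Ctrl at 0, 1, 2, 4 and 6 h (SD, n = 2). The means of DI were higher at every time, with log2 fold changes of 0.11 to 0.70 and no pair called. The DI library at 11.9 CPM at 6 h lay below both Ctrl libraries of that time.

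Per1, a repressor of the CLOCK pair that is also an immediate-early gene in many cells (chr11:69095217-69109960, plus strand), was low at 2 h in both treatments. Its means were 8.48 ± 0.749, 5.52 ± 1.27, 2.20 ± 2.02, 5.32 ± 3.73 and 5.87 ± 3.90 CPM in DI and 6.40 ± 1.36, 3.20 ± 0.372, 1.46 ± 0.379, 1.96 ± 1.16 and 5.05 ± 2.58 CPM in Ctrl (SD, n = 2). At 2 h against 0 h the log2 fold change was −1.91 ± 0.82 in DI, with an adjusted p of 0.147 in edgeR, and −2.15 ± 0.83 in Ctrl, with an adjusted p of 0.104. Cry1, the partner of PER in repression (chr10:85131700-85185064, minus strand), had lower means in DI at every time. It stood at 1.61 ± 0.478, 1.04 ± 1.08, 0.696 ± 0.620, 2.37 ± 1.48 and 2.06 ± 2.91 CPM in DI and at 3.38 ± 1.78, 4.22 ± 1.51, 2.36 ± 0.206, 6.83 ± 1.34 and 3.55 ± 0.470 CPM in Ctrl. Its log2 fold changes of −2.05 to −0.73 had standard errors of over 1, and none was called.

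Per2, the other Per gene of the list (chr1:91415982-91459324, minus strand), was at 0 reads in all 10 DI libraries. In Ctrl it held 35 and 37 reads at 0 h, 14 and 20 at 1 h, 1 and 3 at 2 h, 0 and 2 at 4 h, and 4 and 1 at 6 h. The groups therefore did not overlap at 0, 1, 2 and 6 h, and the Ctrl level stood at 0.321 ± 0.106 CPM at 2 h, against 3.26 ± 0.658 CPM at 0 h (SD, n = 2). Against a floor of 3 estimated molecules over the 2 DI libraries, Per2 was at least 3.39-fold lower in DI at 0 h and at least 1.78-fold lower at 1 h. At the Ctrl level the DI libraries would have held an estimated 10.2 molecules at 0 h, 5.35 at 1 h and 1.04 at 6 h, so absence at 2, 4 and 6 h is within what this depth can miss. The adjusted p in edgeR was 0.0673 at 0 h and 0.0877 at 1 h, which missed the threshold. At 0 h the pair was called by the DESeq2 Wald test, by limma-voom with quality weights, with counts divided by reads per molecule, and without replicate 2 of DI at 2, 4 and 6 h. Per2 passed the filter on low counts through Ctrl alone, so lower in DI was the only call open to it. Its folds and calls are therefore a description.

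Nr1d2, which encodes the receptor REV-ERB beta (chr14:18204054-18239127, minus strand), peaked at 2 h in DI. Its DI libraries stood at 31.8 and 19.9 CPM at 0 h, 22.7 and 55.8 at 1 h, 79.2 and 66.3 at 2 h, 22.4 and 15.9 at 4 h, and 22.2 and 4.25 at 6 h. Its Ctrl libraries stood at 36.5 and 33.3 CPM at 0 h, 34.1 and 45.0 at 1 h, 38.6 and 31.1 at 2 h, 36.7 and 27.2 at 4 h, and 18.3 and 22.4 at 6 h. At 2 h both DI libraries were above every other library of either treatment. Against DI at 0 h the level at 2 h rose by 1.496 ± 0.48 on the log2 scale (SE, adjusted p = 0.0451 in edgeR). This call was lost without any 1 of the 4 DI libraries compared, with TMM factors of genes at 32 CPM or more, and in a fit of the DI libraries alone, with adjusted p of 0.00335 to 0.257 over all alternatives. DI stood above Ctrl at 2 h by 1.06 ± 0.48, with an adjusted p of 0.202, and the responses differed by 1.501 ± 0.67, with an adjusted p of 0.601, so neither was called.

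Nr1d1, which encodes REV-ERB alpha (chr11:98767932-98775333, minus strand), was close to the limit of detection. It held 12 and 9 reads at 0 h, 12 and 21 at 1 h, 0 and 0 at 2 h, 11 and 0 at 4 h, and 2 and 0 at 6 h in DI. In Ctrl it held 24 and 16 reads at 0 h, 5 and 20 at 1 h, 2 and 0 at 2 h, 3 and 0 at 4 h, and 0 and 2 at 6 h. Most reads thus came at 0 and 1 h in both treatments, apart from 11 reads in 1 DI library at 4 h. No pair was called in edgeR with all 20 libraries in any of the 4 families of comparisons. Against 0 h in Ctrl, Nr1d1 was called lower at 2 h with only the groups compared (background 30.7%). In limma-voom it was called lower there at 2 and 4 h (background 31.9%). Its exons share 263 bases with the opposite-strand gene Thra, a thyroid hormone receptor, which was at 6.85 ± 0.559 CPM in DI and 11.3 ± 1.78 CPM in Ctrl at 0 h.

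Dbp, the D-box activator used as a readout of CLOCK activity (chr7:45705088-45710203, plus strand), was lower at late times in both treatments. Its DI libraries held 19 and 35 reads at 0 h, 16 and 21 at 1 h, 2 and 11 at 2 h, 0 and 0 at 4 h, and 4 and 0 at 6 h. Its Ctrl libraries held 144 and 79 reads at 0 h, 66 and 47 at 1 h, 16 and 27 at 2 h, 10 and 8 at 4 h, and 0 and 0 at 6 h. Both treatments thus came to 0 reads at one time, DI at 4 h and Ctrl at 6 h. In CPM the means were 3.70 ± 0.478, 3.07 ± 0.202 and 1.65 ± 1.69 in DI at 0, 1 and 2 h and 9.74 ± 2.51, 8.94 ± 5.66 and 3.75 ± 0.266 in Ctrl (SD, n = 2). DI stood below Ctrl in both libraries at 0, 1, 2 and 4 h. At 4 h Dbp fell to 0 reads in DI, against 18 in Ctrl, and this was the single call between DI and Ctrl (adjusted p = 0.0287 in edgeR). It was lost without any 1 of the 4 libraries, in limma-voom with quality weights, with only the groups compared, and with counts divided by reads per molecule, and the adjusted p ran from 0.0104 to 0.369. At the Ctrl level the DI libraries at 4 h would have held an estimated 2.29 molecules, under the floor of 3, so no fold is given. The exons of Dbp share 539 bases with the opposite-strand gene Sphk2, a sphingosine kinase.

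Over time, 1 of 32 pairs was called in Ctrl against 0 h, where the background was 16.8% of gene and time pairs, and 2 of 28 in DI, where it was 13.4%. Both shares are under their background. The Ctrl call was Dbp at 6 h, which fell at least 6.04-fold by the floor of 3 molecules (adjusted p = 7.2e-04 in edgeR) and kept its call in all 11 alternatives and without each of the 4 libraries. The Ctrl 6 h libraries would have held an estimated 18.1 molecules of Dbp at the 0 h level. The DI calls were Nr1d2 at 2 h and Dbp at 4 h, the second at least 1.23-fold lower (adjusted p = 0.00547 in edgeR), with 3.69 molecules expected at the DI 0 h level. That Dbp call was lost in limma-voom, with only the groups compared, with counts divided by reads per molecule and in a fit of the DI libraries alone. The comparisons with 0 h share their 0 h libraries within a treatment.

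The count in Ctrl differed between fits. In edgeR with all 20 libraries it was 1 of 32. It was 11 with only the groups compared (background 30.7%), 11 in limma-voom with a weight for each treatment (background 31.9%) and 9 in a fit of the 10 Ctrl libraries alone (background 30.7%), which was chosen after seeing the data. In those 3 fits 8 pairs were called every time, with 4 members among them: Bhlhe40 higher at 2 h, Per1 and Per2 lower at 2 and 4 h, and Dbp lower at 2, 4 and 6 h. The shares in these fits were close to their backgrounds. The same 3 changes of fit took the count in DI to 1, 1 and 0 of 28 (backgrounds 7.23, 7.01 and 7.95%).

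**Figure D3:**
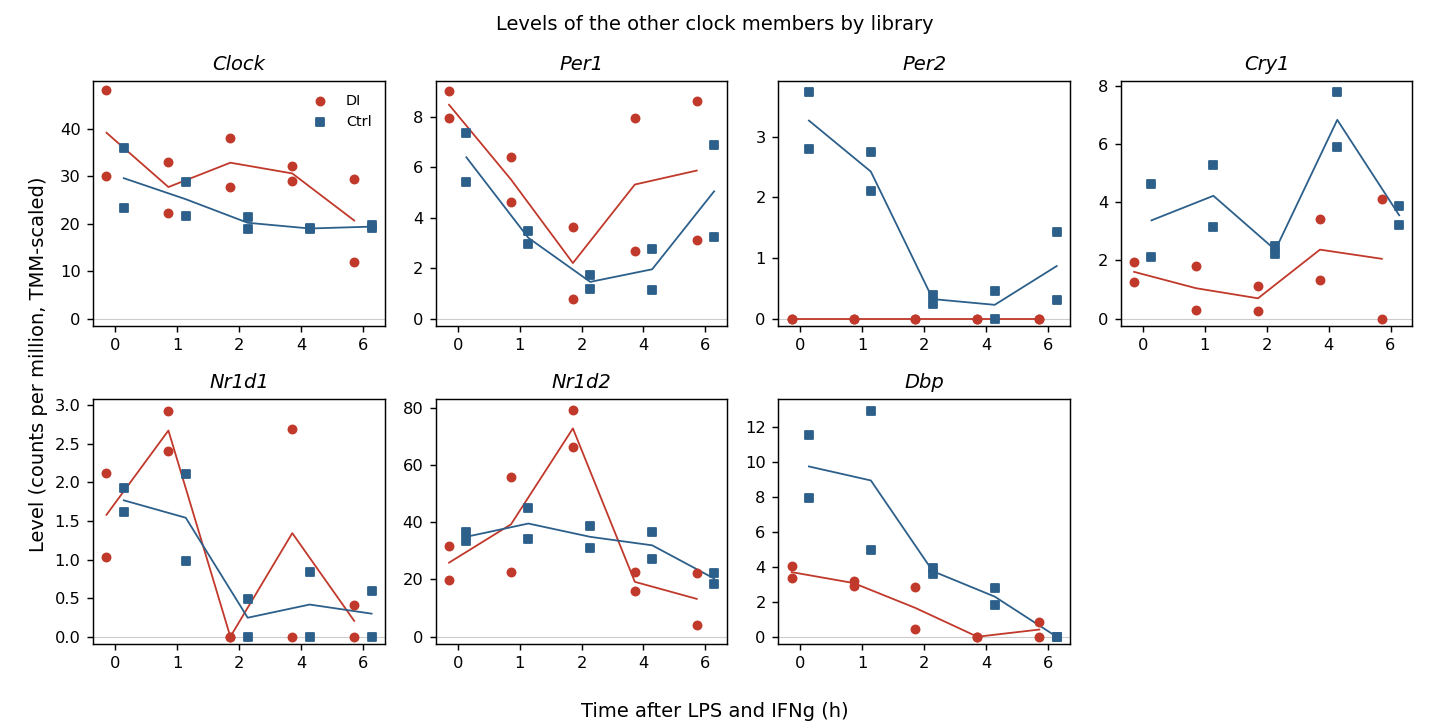
Levels of the other 7 members in CPM (y axis, from 0, a different range in each panel) against hours after LPS and IFNg (x axis, times evenly spaced). Each point is 1 library, DI as circles and Ctrl as squares, and lines join the means of 2 libraries. Per2 is at 0 in every DI library, Nr1d2 peaks at 72.8 CPM in DI at 2 h, and Dbp reaches 0 in DI at 4 h and in Ctrl at 6 h.

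Other genes of the clock were counted from a list of 22, of which 17 were tested. Between DI and Ctrl none was called at 0 or 1 h. At 2 h 2 of 17 were lower in DI (background 3.97% lower), at 4 h 1 of 16 (6.00%) and at 6 h 3 of 17 (8.95%), and none was higher at any time. The 17 had a median log2 fold change of −0.32 at 6 h, against −0.027 for all genes tested.

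Nfil3, a repressor of the D-box sites that DBP activates, had the largest rise called among these genes. It stood at 2.67 ± 1.28, 48.7 ± 8.40, 61.2 ± 0.0950, 11.6 ± 0.14 and 13.1 ± 0.927 CPM in DI and at 2.11 ± 0.154, 75.6 ± 17.9, 61.4 ± 5.82, 18.4 ± 1.23 and 63.7 ± 2.51 CPM in Ctrl at 0, 1, 2, 4 and 6 h (SD, n = 2). Both treatments rose at 1 h, by 4.14 ± 0.38 in DI and 5.15 ± 0.39 in Ctrl on the log2 scale (adjusted p = 2.83e-08 and 4.17e-10 in edgeR), and were lower again at 4 h, and a second high level at 6 h was seen in Ctrl alone. At 6 h the log2 fold change of DI over Ctrl was −2.28 ± 0.34 (adjusted p = 4.05e-05 in edgeR), called in all 10 alternatives and without each of the 4 libraries. The responses to 6 h differed by −2.66 ± 0.52 (adjusted p = 0.00641), which was lost in limma-voom, with only the groups compared, with counts divided by reads per molecule and without DI 0 h replicate 2.

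Timeless, named after a fly clock gene and known in mammals for its part at the replication fork, also differed in its response at 6 h, and these 2 of 17 compare with a background of 0.975% lower at 6 h. It was at 0 reads in both DI libraries at 6 h, against 16.1 and 23.6 CPM in Ctrl. It was at least 7.93-fold lower in DI by the floor of 3 estimated molecules over the group (adjusted p = 5.4e-06 in edgeR), called in all 10 alternatives and without each library, and the DI libraries would have held an estimated 23.8 molecules at the Ctrl level. At 0 h it was already at 5.09 ± 2.80 CPM in DI and 15.1 ± 0.252 CPM in Ctrl (SD, n = 2), which was not called. Its response to 6 h differed between the treatments with an adjusted p of 0.00622, lost in limma-voom and with counts divided by reads per molecule.

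Fbxw11, an F-box protein that marks PER proteins for breakdown, rose in Ctrl at 2, 4 and 6 h, by 1.69 ± 0.35, 2.19 ± 0.36 and 1.74 ± 0.36 on the log2 scale, and was called in no comparison with 0 h in DI. It stood at 17.2 ± 5.62, 14.9 ± 0.300, 29.6 ± 16.3, 30.8 ± 4.86 and 32.2 ± 8.26 CPM in DI and at 21.5 ± 0.0976, 29.2 ± 2.23, 69.4 ± 9.02, 97.9 ± 6.89 and 71.9 ± 11.6 CPM in Ctrl (SD, n = 2). Its log2 fold change of DI over Ctrl was −1.23 ± 0.36, −1.67 ± 0.36 and −1.16 ± 0.36 at 2, 4 and 6 h (adjusted p = 0.0389, 0.00296 and 0.0296 in edgeR). The call at 4 h held in all 10 alternatives and without each library, and those at 2 and 6 h were each lost in 2 alternatives and without either Ctrl library or DI replicate 2 of that time, with adjusted p of up to 0.370 and 0.200. The responses were not called as different at any time. Usp2, a deubiquitinase that acts on clock proteins, was lower in DI at 2 h, with 4 and 0 reads in DI and 32 and 41 in Ctrl (−3.73 ± 1.08, adjusted p = 0.0385 in edgeR), a call lost in 4 of 10 alternatives and without the same 3 libraries, with an adjusted p of up to 0.264.

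In Ctrl, 1 of 17 other clock genes was higher at 1 h than at 0 h and 3 were at 2 h (background 3.65% and 9.13% higher), with none lower. At 4 h 5 were higher and 3 lower (background 14.7% and 9.58%), and at 6 h 3 and 4 (15.2% and 11.3%). Besides Nfil3 and Fbxw11, the deacetylase Sirt1 rose by 1.78 ± 0.37 and the PER kinase Csnk1d by 0.98 ± 0.31 on the log2 scale at 4 h. Rora, the activator at ROR elements, changed by −1.71 ± 0.48, the DBP relative Tef by −3.28 ± 0.79 and Usp2 by −2.76 ± 0.87 at 4 h, and at 6 h these 3 were joined by the PER kinase Csnk1e (−0.84 ± 0.29). These genes were at an adjusted p of at most 0.0355 in edgeR. With TMM factors of genes at 32 CPM or more, which move the median of all genes by −0.34 at 4 h, the call of Csnk1d was lost. The call was lost without any 1 of the 4 libraries for Usp2 and Csnk1d at 4 h and for Rora and Csnk1e at 6 h, with adjusted p of up to 0.176, 0.128, 0.200 and 0.233. It was lost without either Ctrl 4 h library for Rora (up to 0.101) and without Ctrl 4 h replicate 2 for Tef (0.0556). The calls of Tef, Csnk1d and Usp2 at 6 h were lost without 3, 3 and 2 of the 4 libraries.

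In DI, 1 of 17 was higher at 1 h (background 3.29%), and 3 were higher and 1 lower at 2 h (7.89% and 3.09%). At 4 h 2 were higher and 1 lower (background 11.4% and 7.34%), and at 6 h 1 and 3 (11.2% and 8.91%). Sirt1 rose by 1.63 ± 0.38 and Tef fell by 2.42 ± 0.74 on the log2 scale at 4 h. At 6 h Tef stood at −2.63 ± 0.74, Per3, the third Per gene, at −3.48 ± 1.15, and Timeless at least 2.03-fold lower than at 0 h (adjusted p = 0.0131, 0.0345 and 2.06e-04 in edgeR). The 6 h level of Per3 rests on 6 reads in 1 of 2 libraries, and its call was lost without each library but DI 6 h replicate 1, in limma-voom, with only the groups compared and in a fit of the DI libraries alone, with adjusted p of up to 0.212. The Timeless call was lost in limma-voom (0.0529). The Tef calls were lost in limma-voom and without DI 0 h replicate 2, DI 4 h replicate 1 or DI 6 h replicate 2, and that of Sirt1 without DI 0 h replicate 1. At 2 h the kinase Gsk3b rose by 0.94 ± 0.28 and Usp2 changed by −3.97 ± 1.07. Both calls were lost in limma-voom, with only the groups compared and in a fit of the DI libraries alone. They were also lost without DI 0 h replicate 1 or DI 2 h replicate 2. That of Gsk3b was lost as well with TMM factors of genes at 32 CPM or more, without DI 0 h replicate 2, and without replicate 2 of DI at 2, 4 and 6 h.

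**Figure D4:**
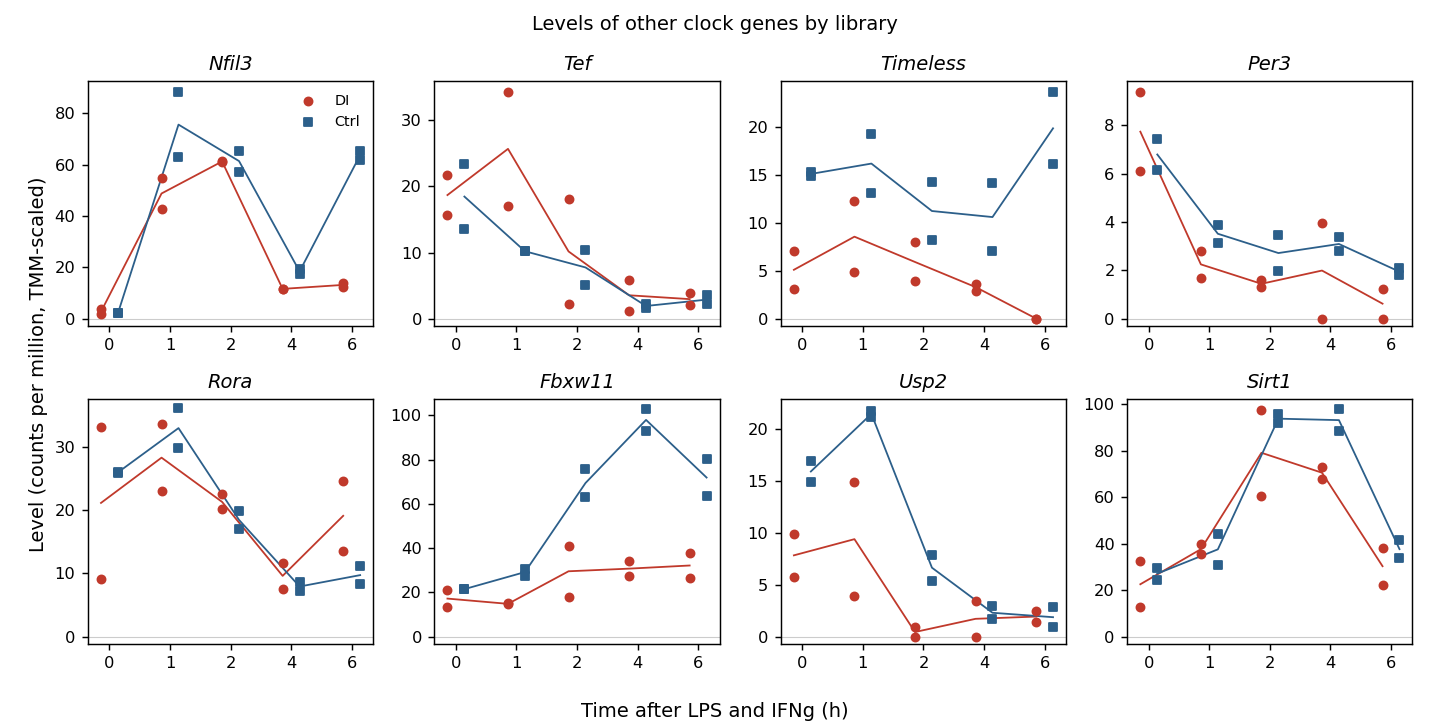
Levels of 8 other clock genes in CPM (y axis, from 0, a different range in each panel) against hours after LPS and IFNg (x axis, times evenly spaced). Each point is 1 library, DI as circles and Ctrl as squares, and lines join the means of 2 libraries. Nfil3 is at 13.1 CPM in DI and 63.7 CPM in Ctrl at 6 h, and Timeless is at 0 in DI at 6 h.

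Genes that REV-ERB receptors are known to repress, in macrophages for most of the list, were followed as 6 targets: Cx3cr1, Mmp9, Ccl2, Il6, Arntl and Nfil3, the last a clock gene counted above with Arntl. Between DI and Ctrl 1, 2, 3, 2 and 2 of 6 were lower at 0, 1, 2, 4 and 6 h and none was higher (background 2.17, 3.03, 3.97, 6.00 and 8.95% lower). Most of these calls were of the same 2 genes, Ccl2 at 0, 1, 2 and 4 h and Il6 at 1, 2, 4 and 6 h. The others were Cx3cr1 at 2 h and Nfil3 at 6 h. The log2 fold change of Il6, DI over Ctrl, was −3.90 ± 0.45, −2.71 ± 0.38, −3.93 ± 0.40 and −3.30 ± 0.39 (SE) at 1, 2, 4 and 6 h. Against 0 h, Ccl2, Il6 and Nfil3 rose at 1, 2, 4 and 6 h in both treatments. In DI the Nfil3 call was lost at 4 h in limma-voom and at 4 and 6 h with only the groups compared, with adjusted p of up to 0.122 and 0.0666. The chemokine gene Ccl2 was at 54.4 ± 8.79 CPM in DI and 253 ± 30.2 CPM in Ctrl at 0 h and at 470 ± 107 CPM in DI and 646 ± 115 CPM in Ctrl at 6 h (SD, n = 2). Its log2 fold change of DI over Ctrl was −2.22 ± 0.30 at 0 h (adjusted p = 3.5e-05 in edgeR) and −0.46 ± 0.29 at 6 h, which was not called. It was the 1 gene of 6 whose response to 6 h was higher in DI than in Ctrl (background 0.572% higher), and Nfil3 the 1 whose response was lower. That Ccl2 call was lost without DI 0 h replicate 2, DI 6 h replicate 1 or any Ctrl library of 0 or 6 h, with an adjusted p of up to 0.168. The lower Ccl2 in DI lost its call at 2 h without each library but Ctrl replicate 1 (up to 0.306) and at 4 h without replicate 2 of either treatment (up to 0.0807). The rise of Il6 in DI at 1 h was lost in limma-voom, with only the groups compared and with counts divided by reads per molecule, with an adjusted p of up to 0.546. The chemokine receptor gene Cx3cr1 fell in Ctrl, to 0.870 ± 0.0511 CPM at 4 h and 0.299 ± 0.423 CPM at 6 h, against 10.4 ± 1.76 CPM at 0 h, and was at 0 reads in DI at 2 h, at least 2.08-fold below Ctrl (adjusted p = 0.0373 in edgeR), where 6.23 molecules were expected. The calls of Cx3cr1 in Ctrl at 4 h and against Ctrl at 2 h were lost without any 1 of the 4 libraries, and that in Ctrl at 6 h without Ctrl 0 h replicate 2 or Ctrl 6 h replicate 1, with adjusted p of up to 0.200, 0.186 and 0.141. The protease gene Mmp9 was called in no comparison, at 12.8 to 20.01 CPM in DI and 11.02 to 17.4 CPM in Ctrl over the group means. Arntl, the partner gene of Clock, stood at 3.02 ± 0.777 CPM in DI and 5.12 ± 0.112 CPM in Ctrl at 0 h. In Ctrl it was at 1.26 ± 0.182 CPM at 4 h and 2.81 ± 1.95 CPM at 6 h. In DI it was at 0 reads in both libraries at 2 h and close to the limit of detection after 0 h. Arntl was also called in no comparison.

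The genes whose course was most like that of Bhlhe41 were picked by Pearson's r over the 10 group means of log2(CPM + 1), among 9094 genes, and share its libraries. They were Sept8, a septin (r = 0.981), Galnt6, an enzyme of mucin-type glycosylation (0.968), the patched-domain gene Ptchd1 (0.967), the mitochondrial ribosomal protein gene Mrps15 (0.943) and Mia3, which acts in export from the endoplasmic reticulum (0.941). By Spearman's rho Mrps15 was among the leading 5 as well (0.952), tied with Galnt6, and Sept8, Ptchd1 and Mia3 were not. Ptchd1 came nearest in the size of the loss, with 37.5 ± 16.7 CPM in DI and 2.66 ± 0.798 CPM in Ctrl at 6 h and 58.0 ± 13.2 CPM in DI and 36.9 ± 5.77 CPM in Ctrl at 0 h (SD, n = 2). Galnt6 stood at 42.2 ± 25.2 CPM in DI and 6.48 ± 0.560 CPM in Ctrl at 6 h. Sept8 stood at 60.6 ± 10.8 CPM in DI and 26.1 ± 1.99 CPM in Ctrl at that time. As they were chosen for this pattern, their levels are a description with no test.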

How the data were processed

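Gene counts of 20 libraries were analysed as deposited, as whole-number counts per Ensembl gene. Per the labels' protocols, the authors made barcoded oligo-dT, strand-specific libraries pooled by Actb and amplified for 12 PCR cycles. Per the submitters' processing notes, STAR, HTSeq and DESeq2 were used with mm10, with versions and options not given in the sources used here. No molecular identifiers are named.

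Groups came from the labels, and no column was left unused. Genes kept by filterByExpr were fitted in edgeR 4.0.16 (R 4.3.3) with TMM and a robust quasi-likelihood fit of all 20 libraries, 1 coefficient a group. P-values were adjusted (Benjamini-Hochberg) over all genes within each contrast and called under 0.05. The SE is the size of the fitted log2 change over the square root of F. Pairs with both groups at 0 reads were left out. The floor is 3 estimated molecules over a group. Reads per molecule were estimated from genes with 4 to 12 expected reads by the share at 0. Expected reads came from the other libraries of the same treatment at all times, so changes over time can raise the estimate. The alternatives used limma 3.58.1 and DESeq2 1.42.0. The edgeR, replicate block, limma-voom and DESeq2 fits were tested on simulated counts, for DI against Ctrl at 6 h. The estimate of reads per molecule was tested in this way too, and the other alternatives were not. Symbols, positions and exon overlaps came from GENCODE (GRCm38), promoters from RefSeq.

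Members, gene lists and tests were chosen with earlier results of these data known. Named genes were all 9 members, every other clock gene called in any contrast (1 is counted but not reported here), the REV-ERB targets, and the 5 genes most like Bhlhe41 that reach 5 CPM.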

Additional observations from a re-analysis of the deposited data

Results flagged for a closer look

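The change since 0 h differed between DI and Ctrl, by the test of the difference itself, for 3 genes named here, all at 6 h. The difference on the log2 scale was −2.66 for Nfil3, lower in DI. It was −8.24 for Timeless, a fitted value that depends on the prior count since DI was at 0 reads. It was 1.76 ± 0.41 for Ccl2, higher in DI (SE, adjusted p = 0.0274 in edgeR), and this call was lost with only the groups compared and without 6 of the 8 libraries. With counts divided by reads per molecule the differences were −2.59 ± 0.73 for Nfil3 (adjusted p = 0.0615), −6.66 ± 2.04 for Timeless (0.106) and 1.76 ± 0.42 for Ccl2 (0.0210), and the lower levels of Nfil3 and Timeless in DI at 6 h kept their calls. The part of library complexity in these differences was otherwise not tested.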

How the results depend on the processing

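Counts of called pairs moved with the fit. Between DI and Ctrl, 1 of 40 in edgeR became 3 with the DESeq2 Wald test (background 10.9%), 2 in limma-voom with quality weights (7.04%), 0 with only the groups compared (5.32%) and 3 without replicate 2 of DI at 2, 4 and 6 h together (7.78%). In Ctrl against 0 h, 1 of 32 became 2 (19.4%), 11, 11 and 6 (21.9%) under the same changes, 8 with counts divided by reads per molecule (24.9%) and 9 in the fit of the Ctrl libraries alone. In DI against 0 h, 2 of 28 became 4 with DESeq2 (16.7%), 1 in limma-voom (7.01%), 1 with only the groups compared (7.23%), 1 with reads per molecule (11.9%) and 0 in the fit of the DI libraries alone (7.95%). The response difference stayed at 0 in every alternative. Leaving out 1 library gave 0 to 2 between DI and Ctrl, 1 to 1 in Ctrl, 1 to 5 in DI and 0 to 0 for the response difference. The 0 came from leaving out any DI or Ctrl library of the 4 h groups, and the 2 and the 5 from leaving out DI 6 h replicate 1. The 1 in DI came without either replicate of DI at 0 or 2 h. In these leave-out counts each library was dropped only from the contrasts that hold its group, and all other pairs kept their main call. No DI library was thus dropped for the Ctrl count, and no Ctrl library for the DI count. In the voom and groups-only fits the cause of the higher Ctrl counts was not tested. With a replicate block the counts were 1, 1, 2 and 0, as without it, and among the genes named the block ended 1 call, Cx3cr1 in Ctrl at 4 h. Same-numbered libraries showed little shared deviation: over 45 pairs of groups its correlation was −0.143 to 0.113, with 2 over 0.1. Differences between 2 libraries also hold counting noise, so this cannot tell whether same-numbered libraries share a mouse or culture. A change of sign counted as a reversal only where the value was called in edgeR with all 20 libraries or in the alternative. Uncalled values that changed sign were counted as kept or moved. By this rule, for single genes 1933 of the values under alternatives kept their side of the threshold or their value, 53 became called, 54 lost the call and 24 moved, and none reversed. Without 1 library the numbers were 767, 5, 81 and 51. TMM factors of genes at 32 CPM or more moved the median of all genes by −0.20, −0.34 and −0.31 at 2, 4 and 6 h in Ctrl, by −0.14, −0.13, −0.24 and −0.16 at 1, 2, 4 and 6 h in DI, by 0.14 for DI over Ctrl at 6 h and by 0.10 and 0.15 for the response difference at 4 and 6 h. Depth limits Per2, Nr1d1, Cry1 and Dbp most, with group levels often near 1 to 3 estimated molecules in DI. It also limits Bhlhe40 in DI at 4 and 6 h, where its means lie under the floor.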
